A study of Rattus norvegicus with 23 samples.

Results

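The genes described here are 10 calcium cycling genes of the cardiac myocyte, Ryr2, Casq2, Hrc, Trdn, Jph2, Asph, Atp2a2, Pln, Sln and Slc8a1. Each was taken as the probe set whose only gene symbol in the array annotation is that gene, which gave 1 probe set for each of the 10 genes among 29170 probe sets, of which 15310 carry a single symbol. They were measured in 23 whole hearts of newborn Sprague Dawley rats on postnatal day 1, with 1 Affymetrix Rat Gene 1.0 ST array per heart. The hearts came from offspring whose dams had diabetes as well as a high-fat (HF) diet (combination exposed, n = 5), to diabetes alone (diabetes exposed, n = 6) or to HF diet alone (HF diet exposed, n = 5), and from controls (n = 7). Dams of the combination and HF diet groups ate HF diet, and dams of the diabetes and control groups ate control diet, from at least 28 days before mating until delivery. On gestational day 14, dams of the combination and diabetes groups were injected with 65 mg/kg streptozotocin, which destroys pancreatic beta cells, and those of the HF diet and control groups with citrate buffer. Insulin was given to hold the hyperglycemia partly in check. The diabetes modelled here was thus induced late in pregnancy and only partly controlled. Males and females were pooled, and the labels do not give the sex of single hearts.

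In a heart muscle cell, each beat begins when calcium entering through voltage-gated channels opens the ryanodine receptor, and calcium floods out of the sarcoplasmic reticulum onto the contractile filaments. Relaxation follows as a pump returns the calcium to the reticulum and an exchanger carries the rest out of the cell. In the newborn heart the reticulum is still maturing, and the exchanger and surface channels carry a larger share of the calcium than they do in the adult.

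Each value is the authors' normalized log2 intensity after each probe set was centred on its median over the 23 hearts, so 0 is the middle heart and 1 unit is a doubling. Levels of different genes cannot be set against each other on this scale, and whether a cell type marker is present or absent cannot be read from it. Among the arrays, combination heart 1 had the widest spread of values, with an SD of 0.393 where the narrowest array had 0.16. In control heart 1, all 7 measured lung markers and all 6 measured thymus markers were the highest of the 23 hearts. The mean of the lung list was 3.53 there, where the next highest heart, HF diet heart 4, had 0.90. For the thymus list it was 3.59, where the next highest, combination heart 2, had 0.17. The labels carry 19 code stems, of which 3 are shared by several hearts (combination hearts 1 and 2, combination hearts 4 and 5, and HF diet hearts 3, 4 and 5). Whether a stem stands for a dam is not stated, so some hearts may come from 1 litter, and p-values here reflect only the variation from heart to heart.

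All hearts were fitted in 1 limma model with a mean per group. A gene was counted as past the threshold of the study's methods where its log2 difference exceeded 0.32 in size and its unadjusted p was under 0.05, and p-values were also adjusted by Benjamini-Hochberg over all 29170 probe sets. Over 6 pairwise comparisons and the interaction of both exposures, the 10 genes gave 70 differences. Of these, 3 had an unadjusted p under 0.05, 1 passed the threshold and 0 had an adjusted p under 0.05, and for the other 67 the 95% interval included 0. The 1 that passed was Ryr2, lower in combination than in HF diet exposed hearts, and it no longer passed when hearts sharing a code stem were averaged or blocked, or under the methods' t-test. In that comparison 5.76% of all probe sets passed, 2.92% passed as lower, and 13.3% had an unadjusted p under 0.05.

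**Figure D1:**
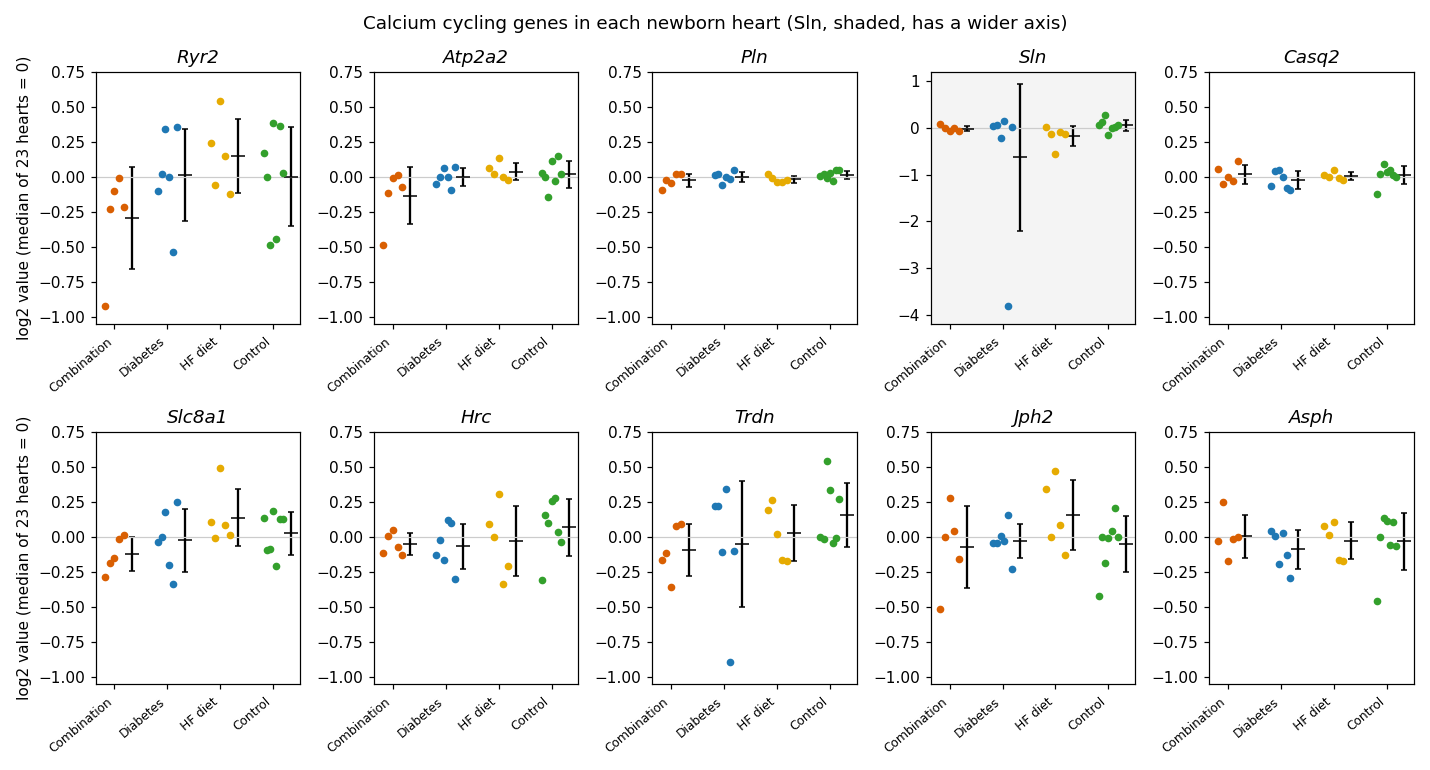
Log2 value (y axis, median of 23 hearts at 0) of each calcium cycling gene in combination, diabetes, HF diet and control hearts; each point is 1 heart, and the bar beside each group is its mean with SD. Sln, on the shaded panel with a wider axis, has 1 diabetes heart at -3.82, while Pln and Casq2 stay close to 0 in all 23 hearts.

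The promoter sequences of Ryr2, Atp2a2 and Slc8a1, the 3 genes that moved together from heart to heart, and of Pln, which varied least, are shown to set beside those patterns. They are the 250 bases before the listed gene start in RefSeq GRCr8, on the plus strand in all 4 cases, from chr17:63081277-63081526 for Ryr2, chr12:39733269-39733518 for Atp2a2, chr6:19023309-19023558 for Slc8a1 and chr20:33172244-33172493 for Pln. For Slc8a1 and Pln this listed start lies inside the span of the gene. Whether the listed starts are those used in these hearts was not tested. Capitals mark the GC box GGGCGG and the CCAAT box on either strand. The 4 genes and the motifs were chosen after the values had been seen.
Ryr2: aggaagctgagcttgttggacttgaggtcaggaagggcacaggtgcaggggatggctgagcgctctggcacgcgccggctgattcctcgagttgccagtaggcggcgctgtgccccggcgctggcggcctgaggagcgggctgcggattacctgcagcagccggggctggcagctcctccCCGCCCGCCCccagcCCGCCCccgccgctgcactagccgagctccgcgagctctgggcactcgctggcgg
Atp2a2: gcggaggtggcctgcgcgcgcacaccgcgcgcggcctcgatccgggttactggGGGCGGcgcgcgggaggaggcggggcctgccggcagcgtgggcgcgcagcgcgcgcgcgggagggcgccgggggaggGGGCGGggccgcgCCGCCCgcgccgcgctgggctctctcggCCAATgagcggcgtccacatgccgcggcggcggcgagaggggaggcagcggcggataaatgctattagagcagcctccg
Slc8a1: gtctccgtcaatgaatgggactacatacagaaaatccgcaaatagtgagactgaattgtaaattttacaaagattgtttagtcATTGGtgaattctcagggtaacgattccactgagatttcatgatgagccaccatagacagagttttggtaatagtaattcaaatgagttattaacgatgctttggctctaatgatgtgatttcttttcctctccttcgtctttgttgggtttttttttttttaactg
Pln: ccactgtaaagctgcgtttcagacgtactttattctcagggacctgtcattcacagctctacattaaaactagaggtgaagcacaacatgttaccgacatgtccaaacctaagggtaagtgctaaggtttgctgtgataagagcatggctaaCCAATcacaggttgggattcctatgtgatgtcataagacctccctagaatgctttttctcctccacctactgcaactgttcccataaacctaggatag

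The windows of Ryr2 and Atp2a2 were rich in G and C, at 72% and 80%, with 23 and 45 CpG pairs. The window of Slc8a1, whose values followed theirs, was not, at 35.2% with 5 CpG pairs, and that of Pln had 44% with 3 CpG pairs. The median over 33469 windows of the same length was 51.2%. Ryr2 and Atp2a2 each held 3 GC boxes, the first 2 of Ryr2 overlapping, and Slc8a1 and Pln held 0; 30.5% of all windows hold at least 1. A CCAAT box was found in Atp2a2, Slc8a1 and Pln, as in 34% of all windows. Of the other motifs searched on both strands, TATAAA (12.9% of windows), the muscle CATTCC element (12.1%) and the CArG box (1.5%) were in none of these 4 windows. The E-box CANNTG (65.5%) was in all 4. A MEF2 site (1.68% of windows) was found among the 8 genes with a listed window only in that of Casq2.

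Ryr2, the ryanodine receptor that releases calcium from the reticulum, had values of -0.92, -0.23, -0.10, -0.005 and -0.21 in the 5 combination hearts. Diabetes hearts ran from -0.53 to 0.36 with a median of 0.011. HF diet hearts were at 0.24, -0.055, 0.55, 0.15 and -0.12, and controls ran from -0.49 to 0.39 with a median of 0.028. All 5 combination hearts lay below 0, but every other group also held hearts below 0 and the ranges overlapped.

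The mean of Ryr2 was -0.29 ± 0.36 in combination hearts and 0.15 ± 0.26 in HF diet hearts (SD, n = 5 each), a log2 difference of -0.45 (SE 0.20, 95% interval -0.85 to -0.039, limma adjusted p = 0.37). An exact two-sided permutation of these 10 hearts gave p = 0.040, where 0.0079 is the smallest p that this design allows, and 0.46 after adjustment over all probe sets. The difference fell short of the threshold without combination heart 1 (-0.29), without HF diet heart 3 (-0.35) and without HF diet heart 1 (-0.42). It also fell short with code stems averaged (-0.39, limma adjusted p = 0.71), with the stem as a random block (-0.43, limma adjusted p = 0.51) and under the methods' t-test. The permutation treats all 10 hearts as exchangeable, although 7 of them share a stem with another heart. Against controls, Ryr2 in combination hearts differed by -0.30 (SE 0.18, adjusted p = 0.56) and against diabetes hearts by -0.31 (SE 0.19, adjusted p = 0.57), neither of which passed. Without combination heart 1 these were -0.14 and -0.15. The first passed without control heart 3 (-0.38) and the second without diabetes heart 5 (-0.42).

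The values of 13 measured long transcripts of chromatin regulators moved with this difference. Of the 13, 9 passed as lower in combination hearts, where 2.92% of all probe sets did. The mean of this list per heart ran from -0.77 to -0.012 in combination hearts and from -0.10 to 0.23 in HF diet hearts. With this mean as a covariate the Ryr2 difference was 0.014 (limma adjusted p = 1.00); since the list itself differs between the groups, the covariate also takes out difference between them. Whether the list reflects RNA or array quality was not tested. Of 11 myocyte markers, 1 passed as lower in the same comparison, and their mean per heart ran from -0.29 to 0.024 in combination hearts and from -0.039 to 0.17 in HF diet hearts. Ttn had means of -0.27 in combination and 0.13 in HF diet hearts, while Tnni3 went the other way (0.042 and -0.013). The median difference of the myocyte markers was -0.14, with 2 of 11 above 0. It was -0.24 for fibroblast, -0.11 for endothelial and 0.45 for erythroid markers, so lower values were not particular to myocyte markers. Fewer myocytes, another mix of cells and less RNA per myocyte cannot be told apart in whole hearts.

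Of the genes for calcium binding proteins of the reticulum lumen, Casq2 varied little between hearts and Hrc more. Casq2, cardiac calsequestrin, the main calcium store protein, had means of 0.018 ± 0.065 in combination hearts (n = 5), -0.023 ± 0.064 in diabetes hearts (n = 6), 0.0070 ± 0.027 in HF diet hearts (n = 5) and 0.012 ± 0.065 in controls (SD, n = 7). Its SD over the 23 hearts was 0.057, and 0.477% of all probe sets had a smaller one. Its lowest heart was control heart 1, at -0.12. Hrc, the histidine-rich calcium binding protein of the reticulum lumen, ran from -0.12 to 0.050 in combination hearts, from -0.30 to 0.12 in diabetes hearts, from -0.33 to 0.31 in HF diet hearts and from -0.31 to 0.28 in controls. For Hrc the combination hearts were the tightest group and all ranges overlapped. The log2 difference of Hrc from controls was -0.12 (SE 0.11) in combination, -0.13 (SE 0.10) in diabetes and -0.096 (SE 0.11) in HF diet hearts, all below 0 and none past the threshold. The HF diet value was -0.020 without HF diet heart 4 and -0.18 without HF diet heart 3, and without control heart 1 the combination value was -0.18.

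Among the proteins that anchor the release site, Trdn encodes triadin, which ties calsequestrin to the ryanodine receptor. Its values were -0.17, -0.11, -0.36, 0.077 and 0.098 in combination hearts and 0.20, 0.26, 0.023, -0.16 and -0.17 in HF diet hearts. In diabetes hearts it ran from -0.89 to 0.35 with a median of 0.061, and in controls from -0.044 to 0.54 with a median of 0. The lowest of the 23 was diabetes heart 5, more than 0.5 below every other heart. The difference of combination hearts from controls was -0.25 (SE 0.16, limma adjusted p = 0.58), between -0.30 and -0.18 with any 1 heart left out, and an exact two-sided permutation gave p = 0.077, or 0.65 after adjustment over all probe sets. The difference of diabetes hearts from controls was -0.21 (SE 0.15), and without diabetes heart 5 it was -0.038.

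Jph2, junctophilin, which holds the surface membrane against the reticulum, had values of -0.52, 0, 0.28, 0.042 and -0.16 in combination hearts and 0.35, 0, 0.48, 0.085 and -0.13 in HF diet hearts. It ran from -0.22 to 0.16 in diabetes hearts and from -0.42 to 0.21 in controls. The difference of HF diet hearts from controls was 0.21 (SE 0.12, 95% interval -0.049 to 0.46) and did not pass. Asph, whose locus encodes the hydroxylase aspartyl/asparaginyl beta-hydroxylase as well as junctin, a partner of triadin, differed from controls by 0.036 (SE 0.096) in combination, -0.058 (SE 0.091) in diabetes and 0.0050 (SE 0.096) in HF diet hearts. One probe set stands for all its products here, so junctin cannot be read apart from the enzyme. The lowest value of Asph, -0.46, was in control heart 1, and without that heart the 3 differences were -0.035, -0.13 and -0.066, so that 2 of them changed sign.

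Calcium returns to the reticulum through Atp2a2, the pump SERCA2. Its values were -0.49, -0.11, -0.004, 0.013 and -0.070 in combination hearts and 0.063, 0.019, 0.14, -0.002 and -0.019 in HF diet hearts. Diabetes hearts ran from -0.091 to 0.071 with a median of 0, and controls from -0.15 to 0.15 with a median of 0.020. Combination heart 1 stood apart as the lowest, and the other 4 combination hearts lay within the range of the controls. Atp2a2 differed between combination and HF diet hearts by -0.17 (SE 0.079, 95% interval -0.33 to -0.0075, limma adjusted p = 0.37), short of the fold threshold. The exact two-sided permutation gave p = 0.048, and 0.47 after adjustment over all probe sets. Without combination heart 1 the difference was -0.083, and with the long transcript covariate it was -0.024 (limma adjusted p = 1.00). Against controls the difference was -0.15 (SE 0.073, limma adjusted p = 0.50), and without combination heart 1 it was -0.063.

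Pln, phospholamban, the inhibitor of that pump in the ventricle, had values of -0.094, -0.021, -0.045, 0.020 and 0.020 in combination hearts and 0.023, -0.006, -0.037, -0.037 and -0.019 in HF diet hearts. It ran from -0.056 to 0.049 in diabetes hearts and from -0.025 to 0.050 in controls. The whole range over 23 hearts was 0.14, with an SD of 0.036, and 0.175% of all probe sets had a smaller SD. Differences from controls were -0.041 (95% interval -0.13 to 0.047) in combination, -0.014 (-0.097 to 0.069) in diabetes and -0.032 (-0.12 to 0.056) in HF diet hearts. The centred values do not show how bright this probe set was, so its small SD cannot be set against signal strength.

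Sln, sarcolipin, the related pump inhibitor that in rodent hearts is found mainly in the atria, was the most variable of the 10, with an SD of 0.81. Combination hearts were at 0.075, -0.010, -0.063, 0 and -0.063, and HF diet hearts at 0.023, -0.13, -0.56, -0.077 and -0.12. Controls ran from -0.14 to 0.27 with a median of 0.054. Diabetes hearts ran from -3.82 to 0.15 with a median of 0.026. The value of -3.82 was diabetes heart 5, about 14.1-fold below the middle heart, and the other 22 hearts lay between -0.56 and 0.27.

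Sln was the lowest of all 29170 probe sets in diabetes heart 5. Bmp10, a growth factor of atrial myocytes, was next at -3.67, followed by Atp1b4, a protein of the sodium pump beta subunit family, at -2.61. Of 7 measured atrial markers, 3 (Bmp10, the atrial light chain Myl7 at -0.40 and the transcription factor Nr2f1 at -0.40) were the lowest of the 23 hearts there, while Nppa (-0.038) and Dkk3 (-0.031) were near their medians. Nr2f2 (-0.465) and Gja5 (-0.51) were below their medians, but each was lower in another heart. The mean of the atrial list was -0.79 in diabetes heart 5 and ran from -0.060 to 0.11 in the other 5 diabetes hearts. Bmp10 was far below every other marker of the list there and weighs most in that mean. How much atrial tissue each heart sample held was not measured.

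The difference of Sln between diabetes hearts and controls was -0.68 (SE 0.42, adjusted p = 1), and -0.045 without that heart, and against HF diet hearts the sign turned without it (-0.46 with it and 0.18 without). Sln in HF diet hearts differed from controls by -0.23 (SE 0.44) in the fit over all groups, whose spread includes diabetes heart 5. An exact two-sided permutation over the HF diet and control hearts alone gave p = 0.029, and 1 after adjustment over all probe sets. Without HF diet heart 3 the difference was -0.13. Like the other permutations, this one treats hearts as exchangeable, although HF diet hearts 3, 4 and 5 share a stem.

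**Figure D2:**
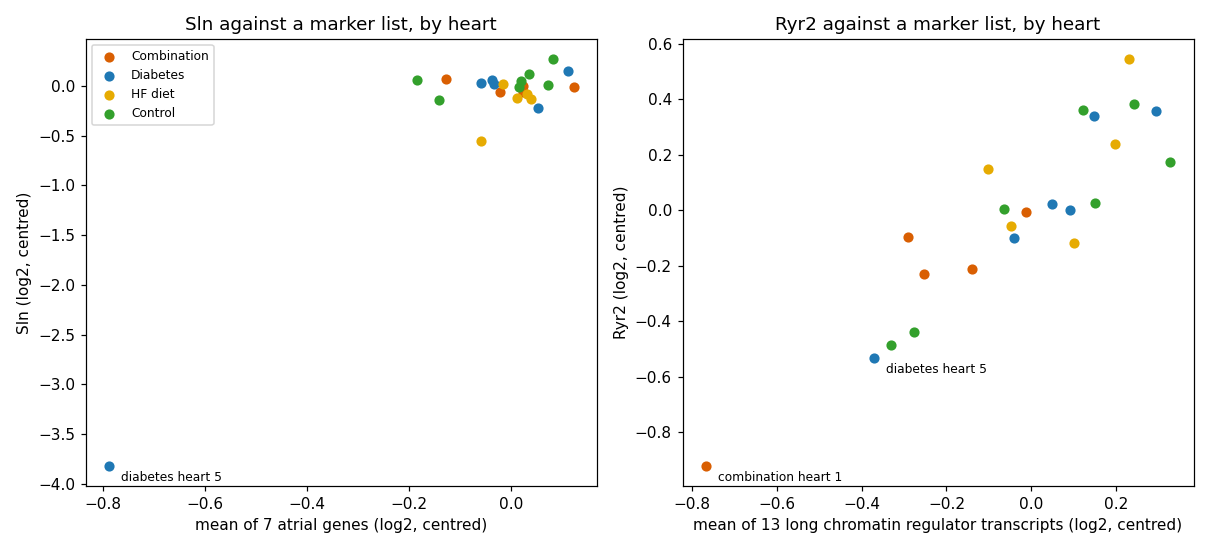
Left, Sln against the mean of 7 atrial genes; right, Ryr2 against the mean of 13 long chromatin regulator transcripts, all as centred log2 values with 1 point per heart, coloured by group. Diabetes heart 5 lies alone at -3.82 for Sln, whereas Ryr2 follows the long transcript mean over all 23 hearts.

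Slc8a1, the sodium-calcium exchanger that carries calcium out of the cell, had values of -0.28, -0.18, -0.15, -0.015 and 0.015 in combination hearts and 0.11, -0.004, 0.50, 0.086 and 0.016 in HF diet hearts. Diabetes hearts ran from -0.34 to 0.25 with a median of -0.017, and controls from -0.20 to 0.19 with a median of 0.13. Combination and HF diet hearts overlapped only between -0.004 and 0.015. The difference between them was -0.26 (SE 0.11, 95% interval -0.49 to -0.030, limma adjusted p = 0.37), short of the fold threshold. The exact two-sided permutation gave p = 0.016, and 0.46 after adjustment over all probe sets. Without HF diet heart 3 the difference was -0.17, and with the long transcript covariate it was -0.045 (limma adjusted p = 1.00).

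Read by comparison, combination hearts against controls gave 0 of the 10 genes past the threshold, where 3.31% of all probe sets passed. Of the 10 differences 2 were above 0, where 50.6% of all probe sets were, and their median was -0.091, beside 0.0018 over all probe sets. Diabetes hearts against controls gave 0 of 10 (0.305% of all probe sets), with 2 differences above 0 (49.9%). HF diet hearts against controls gave 0 of 10 (0.943%), with 5 differences above 0 (55.8%). Combination against diabetes hearts gave 0 of 10 (3.04%), with 4 differences above 0 (51%). Combination against HF diet hearts gave 1 of 10 (5.76%), with 3 differences above 0 (47.1%). Diabetes against HF diet hearts gave 0 of 10 (0.439%), with 1 difference above 0 (43.9%). These comparisons share hearts, and Ryr2, Atp2a2 and Slc8a1 moved together from heart to heart. Neither the counts of different comparisons nor the genes within a count are therefore independent. In no pair of groups did any of the 10 genes separate without overlap. Of all probe sets, 0.202% did so in combination against control, 0.024% in diabetes against control and 0.127% in HF diet against control hearts. The shares were 0.387% in combination against diabetes, 1.64% in combination against HF diet and 0.182% in diabetes against HF diet hearts.

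The interaction, which asks whether the effect of one exposure differs with the other, passed for 0 of 10 (4.34% of all probe sets). It was -0.46 (SE 0.26, adjusted p = 0.67) for Ryr2, -0.15 (SE 0.11) for Atp2a2 and -0.21 (SE 0.15) for Slc8a1. Ryr2 passed without diabetes heart 5 (-0.57). Without combination heart 1 the interaction was -0.30 for Ryr2 and -0.062 for Atp2a2, and without HF diet heart 3 it was -0.12 for Slc8a1. For Pln, every pairwise interval lay within 0.13 of 0. For Sln the SE of combination minus control was 0.44 in the fit over all groups and 0.087 without diabetes heart 5, which is in neither group, around a difference of -0.064.

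Over the 23 hearts Ryr2, Atp2a2 and Slc8a1 moved together. Pearson's r was 0.90 for Ryr2 and Atp2a2, 0.86 for Ryr2 and Slc8a1 and 0.68 for Atp2a2 and Slc8a1. After group means were taken out, r was 0.88, 0.84 and 0.61 for the same pairs. Without combination heart 1 and HF diet heart 3, r for Ryr2 and Atp2a2 was 0.89. The same 3 genes followed the mean of the myocyte markers (r = 0.93 for Ryr2, 0.90 for Atp2a2 and 0.83 for Slc8a1) and that of the endothelial markers (0.78, 0.67 and 0.77). They also followed the long transcript mean (r = 0.91 for Ryr2, 0.86 for Atp2a2 and 0.79 for Slc8a1) and the first principal component of the arrays (-0.93, -0.79 and -0.88), and how far these account for their likeness was not tested. Pln followed Ryr2 less closely (r = 0.44), and Casq2 and Hrc did not follow it (-0.15 and -0.02). A second set of pairs was Hrc with Asph (0.64) and Hrc with Jph2 (0.54). The r of 0.72 between Sln and Trdn was 0.44 without diabetes heart 5 and HF diet heart 3.

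**Figure D3:**
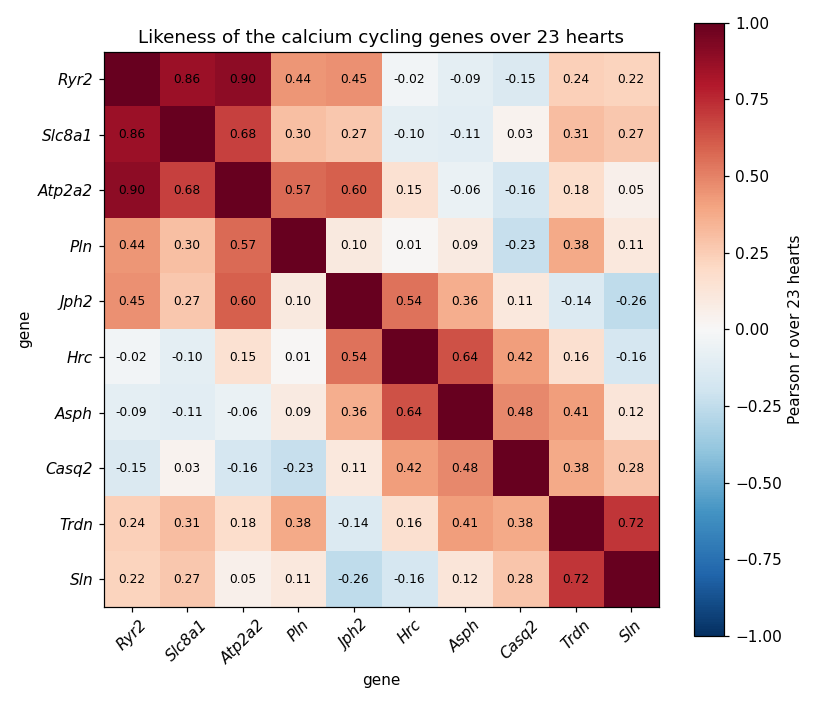
Pearson's r over 23 hearts for each pair of calcium cycling genes, from -1 (blue) to 1 (red). Ryr2, Slc8a1 and Atp2a2 form a block of r between 0.68 and 0.90, and Hrc, Asph and Casq2 a looser one. In the looser block, the r of 0.48 between Casq2 and Asph was 0.31 without control heart 1 and combination heart 5.

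Of all single-symbol probe sets, those most like Ryr2 over the 23 hearts were Tead1 (r = 0.97), Vps13d (0.96) and Ttn (0.96). Those most like Atp2a2 were Atp6v0a1, Lamb2 and Myh7 (0.94 each), and those most like Slc8a1 were Map3k7, Luc7l2 (0.92 each) and Mib1 (0.90). Sln was most like Atp1b4 (0.93), Stard10 (0.90) and Mybphl (0.90), which were all at their lowest in diabetes heart 5. For Casq2 the closest probe set, Armcx2, reached only 0.70. These are the highest of many correlations and are given as a description.

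Beyond these 10 genes, 76 of 92 listed calcium handling genes were measured, by 81 probe sets. In combination hearts against controls 3 of the 81 passed as higher and 4 as lower, where 2.1% and 1.2% of all probe sets did. Fkbp1b, which steadies the ryanodine receptor, differed by 0.33 (SE 0.12) and Hax1, a partner of phospholamban, by 0.43 (SE 0.16). Itpr3, an inositol trisphosphate receptor, differed by -0.34 (SE 0.13) and Cacna1g, a T-type calcium channel, by -0.64 (SE 0.25). Each of these had an adjusted p of 0.50. Combination hearts ran from -0.007 to 0.57 for Fkbp1b, 0 to 1.26 for Hax1, -0.465 to 0 for Itpr3 and -1.46 to 0.12 for Cacna1g. Controls ran from -0.52 to 0.33, -0.21 to 0.33, -0.155 to 0.73 and -0.38 to 0.66 for the same genes, so the ranges overlapped. No values with a heart left out are given for them.

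All 9 voltage-gated calcium channel genes were below 0 in combination hearts against controls, with a median of -0.22. Of the 9, 2 passed as lower, where 1.2% of all probe sets did and 50.6% were above 0. This list had the lowest median of the related lists, and others went the other way. Above 0 were 6 of 7 probe sets for the reticulum lumen and 7 of 9 for mitochondrial uptake. Over the 81 calcium handling probe sets 37 were above 0, with a median of -0.016. In combination against HF diet hearts 2 of the 81 probe sets passed as higher, Hax1 (0.44, SE 0.17) and Fkbp1b (0.33, SE 0.13), and 5 as lower, where 2.84% and 2.92% of all probe sets did. Among the 5 were Itpr3 (-0.38, SE 0.14), Pde4d (-0.33, SE 0.12) and Speg (-0.40, SE 0.18), each with an adjusted p of 0.37. All 9 channel genes were again below 0, where 47.1% of all probe sets were above 0, and 2 passed as lower, Cacna1c, the pore of the L-type channel, at -0.48 (SE 0.19, adjusted p = 0.37), and Cacna2d2, an accessory subunit, at -0.44 (SE 0.16, adjusted p = 0.37). Beside these, all 13 long transcripts were below 0 in both comparisons, with 7 passing as lower against controls and 9 against HF diet hearts, and their part in the channel values was not tested. In combination against diabetes hearts 3 calcium handling genes passed as higher and 3 as lower, where 1.67% and 1.37% of all probe sets did. The higher ones were Rcan1, a calcineurin regulator, at 0.45 (SE 0.13), Hax1 at 0.48 (SE 0.17) and Calm2 at 0.34 (SE 0.15). The lower ones were the channel genes Cacna1g at -0.53 (SE 0.25), Cacna2d2 at -0.40 (SE 0.15) and Cacna1c at -0.39 (SE 0.18). Each had an adjusted p of 0.53. All 9 channel genes were below 0 here too, as were all 13 long transcripts, of which 6 passed as lower. In diabetes hearts against controls, and in HF diet hearts against controls, 0 of the 81 probe sets passed, where 0.305% and 0.943% of all probe sets did. In diabetes against HF diet hearts the 1 that passed was Rcan1, lower at -0.42 (SE 0.13, adjusted p = 1.00), where 0.439% of all probe sets passed. The interaction passed for 2 of the 81 as higher and 3 as lower, where 1.78% and 2.56% of all probe sets did, with the smallest p for Micu3, a regulator of mitochondrial calcium uptake, at -0.43 (SE 0.13, adjusted p = 0.67).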

How the data were processed

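RNA of 23 whole newborn hearts was hybridized to Affymetrix Rat Gene 1.0 ST arrays. The authors normalized the probe intensities in GeneSpring GX, averaged the probes of each set and applied a quality filter, and deposited log2 values, each probe set centred on its median over the 23 hearts. Neither the normalization algorithm nor the filter limits are stated in the sources used. With levels removed, no filter on dim probe sets could be applied. The deposited values were fitted with limma 3.58.1 (R 4.3.3), 1 mean per group, on all 29170 probe sets. Promoter windows came from RefSeq GRCr8; none was used for Sln and Asph. Figures were drawn with Python 3.11.15 and matplotlib 3.10.9.

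All 10 calcium cycling genes are named, with up to 4 listed calcium handling genes of smallest p per comparison among those past the threshold, and the 3 probe sets most correlated with a gene. The genes and lists were chosen with earlier results of these data known. Alternatives were the methods' t-test, exact permutation, median centring, quantile normalization, single-symbol probe sets only, array weights, code stems averaged or as a random block, a replicate block, erythroid and long transcript covariates, and each heart left out. An atrial covariate and leaving out 3 hearts together were chosen after seeing the data. A change of sign between 2 values that both missed the threshold was not counted as a changed call. The script was tested on simulated data.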

Additional observations from a re-analysis of the deposited data

Results flagged for a closer look

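In 7 of the 40 sets formed by 1 gene in 1 group, a single heart stood apart from the rest of its group by Dixon's criterion at the 95% level; chance flags about 1 in 20 groups, and several of these fall in the same heart. Combination heart 1 was low for Ryr2 (-0.921, the next at -0.23) and for Atp2a2 (-0.486, the next at -0.113). Diabetes heart 5 was low for Sln (-3.816, the next at -0.225) and for Trdn (-0.887, the next at -0.102). HF diet heart 3 was low for Sln (-0.555, the next at -0.131) and high for Slc8a1 (0.495, the next at 0.107). Control heart 1 was low for Asph (-0.457, the next at -0.065), and it is the heart in which the lung and thymus markers were highest. Over all 10 genes, combination heart 1 was the lowest of the 23 hearts for 4 genes and diabetes heart 5 for 3, and HF diet heart 3 was the highest for 4.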

How the results depend on the processing

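No gene reached an adjusted p under 0.05 in any comparison under any of these settings. The 1 call, Ryr2 in combination against HF diet hearts, was kept under exact permutation, median centring (-0.44), quantile normalization (-0.37), single-symbol probe sets and the atrial covariate (-0.45). The count of genes past the threshold there went to 0 under the methods' t-test (Ryr2 at -0.45), array weights (-0.31), code stems averaged (-0.39) or as a random block (-0.43), the erythroid covariate (-0.37), the long transcript covariate (0.014, the sign reversed) and with combination heart 1, diabetes heart 5 and control heart 1 left out together (-0.29), the last chosen after seeing the data. With 1 heart left out at a time, Ryr2 there ranged from -0.52 to -0.29, and the count of genes past the threshold from 0 to 1. The count also ranged from 0 to 1, with Ryr2 as the gene, in combination against controls (-0.38 without control heart 3), in combination against diabetes hearts (-0.42 without diabetes heart 5) and in the interaction (-0.57 without diabetes heart 5). Without combination heart 1 these 3 differences of Ryr2 were -0.14, -0.15 and -0.30. The cause was not tested. Of 890 values under other settings 883 kept their call, as did 1604 of 1610 with 1 heart left out; 60 and 55 of these changed sign while missing the threshold both times. Replicate numbers did not pair the hearts (median r of -0.083 over 31 same-numbered pairs), and a replicate block left 1 gene past the threshold (Ryr2 at -0.45). The number of arrays limits the precision.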
